A study of Homo sapiens with 12 samples.

Results

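Cytosolic ribosomal proteins are the proteins of the ribosomes that work outside mitochondria, and their mRNA levels were followed across 4 groups of libraries. The genes were chosen by symbol alone: RPL or RPS followed by a number and at most 1 of the letters A, L or X, together with RPLP0, RPLP1, RPLP2 and RPSA. The rule found 81 of the 20307 genes in the deposited table, of which 32 encode proteins of the small 40S subunit and 49 proteins of the large 60S subunit. The RPS6K kinases were not members. The rule used no measured value, but it was chosen with earlier results of these data known.

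The 12 RNA-seq libraries came from THP-1 and H1299, both established human lines, with 3 libraries in each group. THP-1 grew out of a monocytic leukaemia, and the phorbol ester PMA turns its cells towards macrophages. H1299 comes from a lung carcinoma of the non-small-cell kind. The THP-1 labelled DCBLD2 and labelled control groups were wild type by label, were given PMA for 24 h, and were then kept for 48 h with material of DCBLD2 or of control H1299. The series design speaks of co-culture, whereas the sample labels name supernatant, so contact between the cells cannot be told from the sources used here. The H1299 labelled DCBLD2 group carries the genotype label DCBLD2 overexpression, and the H1299 labelled control group carries the genotype label WT. No construct, promoter or clone is given for either H1299 group, and no label states whether the 3 replicates of a group were grown apart. A p-value here is therefore set against the spread of these samples alone, and that spread can be technical.

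DCBLD2, a transmembrane receptor-like protein and the gene that the labels name, went against the H1299 labels. It had 105, 98.2 and 92.5 TPM (transcript levels corrected for length and library size) in H1299 libraries labelled DCBLD2, against 247, 148 and 196 TPM in H1299 libraries labelled control. Groups are therefore called by their labels, and every direction is labelled DCBLD2 against labelled control, or THP-1 against H1299. Libraries held 18606739 to 26787853 estimated reads in THP-1 and 14578887 to 23388187 in H1299. Of 12 myeloid markers, 12 reached a mean of 1 TPM in both THP-1 groups, whereas 1 of them did in H1299 labelled DCBLD2 and 2 did in H1299 labelled control. Of 12 carcinoma markers, 8 reached 1 TPM in both H1299 groups, with summed levels of 2172 to 2765 TPM in labelled DCBLD2 and 2964 to 3224 TPM in labelled control. In THP-1 their sums were 129 to 137 TPM in labelled DCBLD2 and 177 to 186 TPM in labelled control. By count, 7 of the 12 reached 1 TPM in THP-1 labelled DCBLD2 and 6 did in THP-1 labelled control. The carcinoma markers thus set the lines apart by summed level and hardly by count.

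Ribosomal proteins are made in near-equal numbers, assembled with ribosomal RNA in the nucleolus and joined into 40S subunits, which read the mRNA, and 60S subunits, which form the peptide bond. Their mRNAs are among the most abundant of growing cells. They typically start with a C followed by a run of C and T letters, the 5′ terminal oligopyrimidine (TOP) tract, through which the kinase mTOR and the RNA-binding protein LARP1 control their translation. Single proteins also act outside the ribosome, for example RPL5 and RPL11, which bind MDM2 and so stabilise p53 when assembly is disturbed.

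The start of the mRNA was looked at first because the TOP tract is the sequence that joins these genes. RefSeq promoter windows (GRCh38.p14) were matched by symbol for 64 of the 81 genes. Some genes have several annotated starts, and a gene was counted for a feature below if any of its starts had it. An unbroken run of at least 8 C or T letters on the coding strand, between 10 bases before and 20 bases after the annotated start, was found in 53 of 64 (82.8%), against 15.4% of the 27305 genes with a window. The first transcribed letter was C in 49 of 64 (76.6%), against 18% of all genes. A 6-letter string of the kind CCTTTC, or alternatively CTTTCC, or else CTTTTC, was in 36 of 64 windows (56.2%) on the coding strand, against 4.34% of all, and these strings overlap each other and the run itself. In the whole 300-base window, on either strand, GGAAG was found in 93.8% of the members with a window against 75.4% of all genes, GCCATCTT in 9.38% against 3.52%, TATAAA in 9.38% against 14%, and CACGTG in 6.25% against 8.77%. These are matches of letters and are not shown to be sites.

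The windows below belong to the genes that moved most in THP-1 cells or in H1299 cells and that had a window, so that the tract can be read beside the change. Capitals mark the longest run of C and T letters in each window, and the start annotated by RefSeq follows letter 10 of each window.
RPL35: cgcctaCTTCCTCTTTCCCTCggagcgggc
RPS21: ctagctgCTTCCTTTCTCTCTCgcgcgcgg
RPS14: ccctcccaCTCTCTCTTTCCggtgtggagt
RPL37A: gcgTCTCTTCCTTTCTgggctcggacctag
RPS29: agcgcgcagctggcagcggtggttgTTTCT
RPL4: cgggagtggtaagcaCTTCCTTTTCCTgtg
RPL14: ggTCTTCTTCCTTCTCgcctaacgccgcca
RPS4X: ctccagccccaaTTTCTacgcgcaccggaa
RPS27L: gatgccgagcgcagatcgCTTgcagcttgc
RPL35 lies at chr9:124861938-124861967 on the minus strand, RPS21 at chr20:62387093-62387122 on the plus strand, RPS14 at chr5:150449720-150449749 on the minus strand and RPL37A at chr2:216498834-216498863 on the plus strand. RPS29 lies at chr14:49598691-49598720 on the minus strand, RPL4 at chr15:66504836-66504865 on the minus strand, RPL14 at chr3:40457329-40457358 on the plus strand, RPS4X at chrX:72277229-72277258 on the minus strand and RPS27L at chr15:63157458-63157487 on the minus strand. A long run was present both in RPL35, RPS21 and RPS14, which rose in THP-1, and in RPL4 and RPL14, which fell. RPS27L, the copy of RPS27 that p53 can induce, held no run longer than 3 letters.

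The 81 genes lay on 21 chromosomes, with 12 on chromosome 19, 8 on chromosome 3, 6 on chromosome 17 and 4 on X. Pseudogenes named after them numbered 1133 in GENCODE 29, for 76 of the 81 genes, and 0 of these were rows of the table. Reads that fit both a gene and its pseudogenes can be assigned either way, so levels of genes with many copies are uncertain. RPL23A, a protein at the exit of the peptide tunnel with 91 named pseudogenes, had 14.2, 14.8 and 16.2 TPM in THP-1 labelled DCBLD2 and 14.8, 14.3 and 14.9 TPM in THP-1 labelled control. Its level in H1299 was 17.3 to 19.3 TPM in labelled DCBLD2 and 18.5 to 22.2 TPM in labelled control, against medians over all members of 2188 and 2264 TPM. Other members with many named pseudogenes, RPSA with 74, RPL21 with 66 and RPL7 with 61, were at far higher levels, given below. The part of pseudogenes in the level of RPL23A was not tested.

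Levels per transcript were otherwise high. The median gene had 1653 TPM in THP-1 labelled DCBLD2, 1200 TPM in THP-1 labelled control, 2188 TPM in H1299 labelled DCBLD2 and 2264 TPM in H1299 labelled control. In THP-1, 65 of 81 genes reached a mean of 1000 TPM in labelled DCBLD2 and 50 of 81 did in labelled control. In H1299, 69 did in labelled DCBLD2 and 68 in labelled control. The highest mean levels over all 12 libraries were those of RPL41, the smallest protein of the large subunit, RPS2, which lies where the mRNA enters, the stalk protein RPLP0, and RPS20 and RPS18 of the 40S head. RPL41 had 3850, 3658 and 3557 TPM in THP-1 labelled DCBLD2, 2483, 2419 and 2403 TPM in THP-1 labelled control, 7409, 7454 and 8412 TPM in H1299 labelled DCBLD2, and 8613, 8568 and 6980 TPM in H1299 labelled control. Its H1299 groups overlapped and its THP-1 groups did not. The lowest were RPL10L, RPL3L, RPL23A, RPS27L and RPL39L, of which all but RPL23A are copies of another member.

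In THP-1 cells the ribosomal protein mRNAs took up a larger part of the library with labelled DCBLD2 material than with labelled control material, but this direction is shared by other short mRNAs and was not kept gene by gene once that trend was removed (median log2 fold change -0.0065). They made up 5.77%, 5.54% and 5.47% of all estimated reads in labelled DCBLD2, against 3.98%, 3.95% and 3.95% in labelled control. The means were 5.60% ± 0.155 and 3.96% ± 0.0156 (SD, n = 3 each), a ratio of 1.41, and the groups did not overlap. An exact permutation test, two-sided, gave p = 0.1, the smallest that 3 against 3 can give. Summed TPM gave 14.3%, 13.8% and 13.7% in labelled DCBLD2 and 10.2%, 10.1% and 10.1% in labelled control, a ratio of 1.37. TPM scales each gene by its length within a library and does not remove a trend of change with length. In bulk RNA, fewer cells of a kind and less RNA per cell cannot be told apart. Reads from mitochondrially encoded genes moved the other way with the same groups, at 2.46% to 2.58% in labelled DCBLD2 and 3.48% to 3.51% in labelled control. Summed myeloid markers went with the groups too, at 7386 to 7420 TPM in labelled DCBLD2 and 5374 to 5441 TPM in labelled control, with 0 of the 12 at 0. The part of either in the result was not tested.

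The balance of the subunits also differed. Summed 40S TPM over summed 60S TPM was 0.762, 0.757 and 0.753 in THP-1 labelled DCBLD2 and 0.680, 0.677 and 0.682 in THP-1 labelled control, a ratio of 1.11 between the means (exact permutation test, two-sided, p = 0.1, the smallest possible). The groups stood apart, with more 40S mRNA per 60S mRNA in labelled DCBLD2. The ratio itself was not computed with the length trend removed. Gene by gene, the median THP-1 log2 fold changes of 40S and 60S genes were 0.59 and 0.43. With that trend removed they were 0.056 and -0.031. In H1299 the ratio was 0.663, 0.659 and 0.677 in labelled DCBLD2 and 0.680, 0.678 and 0.666 in labelled control, and the groups overlapped (exact permutation test, two-sided, p = 0.2).

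**Figure D1:**
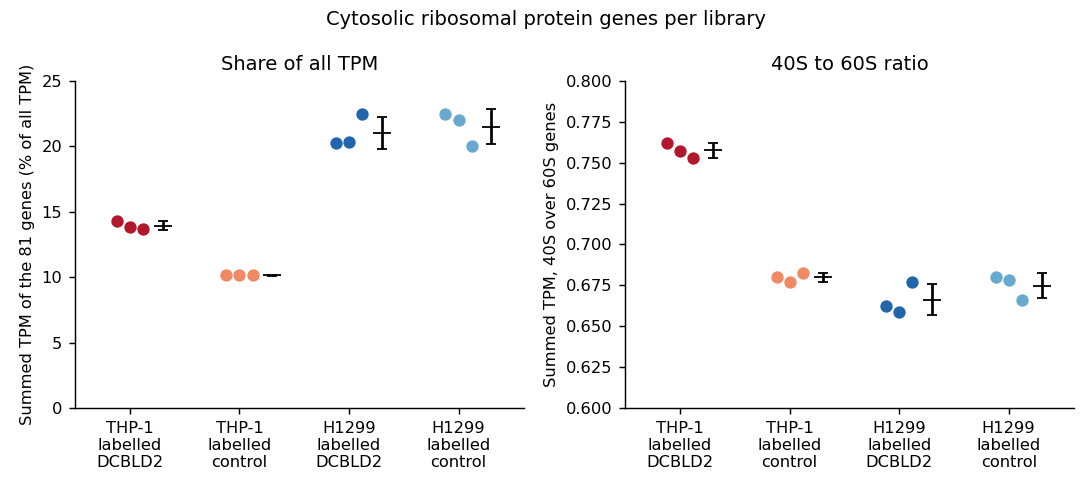
Summed TPM of the 81 ribosomal protein genes as a percent of all TPM (left, axis from 0) and the ratio of summed 40S to summed 60S TPM (right, axis cut at 0.6), for each library as a point, with the group mean ± SD (n = 3) as a black mark. THP-1 labelled DCBLD2 libraries lie at 13.7% to 14.3% and THP-1 labelled control libraries at 10.1% to 10.2%, a direction not kept gene by gene with the length trend removed (median log2 fold change -0.0065), whereas the H1299 groups overlap. With that trend removed the THP-1 medians were 0.056 for 40S genes and -0.031 for 60S genes.

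Gene by gene, edgeR's quasi-likelihood test on estimated counts, adjusted over all genes by the Benjamini-Hochberg method, called 69 of the 79 members tested higher and 7 lower in THP-1 labelled DCBLD2 at an adjusted p under 0.05, but 33 higher and 32 lower once the trend of all other genes with transcript length was removed. Of all 13120 genes tested, 34.5% were called higher and 33.6% lower, and with the length trend removed 33.2% and 33.6%. The median log2 fold change of members was 0.51, against 0.00046 for all genes tested, and -0.0065 against -0.0092 with the trend removed. Levels did not overlap between the groups for 76 of 79 members, where 64.9% of all genes did the same. Rises of at least 1.5-fold were called for 30 members, against 11.3% of all genes tested, and of at least 2-fold for 5, against 3.93%. These counts were 3 and 0 with the length trend removed, against 9.5% and 3.49% of all genes. By subunit, the 32 tested 40S genes had a median of 0.59, 30 of them higher and 1 lower, and the 47 tested 60S genes had a median of 0.43, 39 of them higher and 6 lower. Without the length trend, 16 of the 40S genes were higher and 10 lower, and 17 of the 60S genes were higher and 22 lower. All of these calls rest on THP-1 replicates that varied little, with a biological coefficient of variation of 1.96% in edgeR, against 13.3% in H1299. A test of the same THP-1 libraries that gave every gene the spread seen in H1299 called 53 members higher and 1 lower. It called 2358 of all 13120 genes tested higher and 2173 lower, and the length trend was not removed in it.

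The largest rise was that of RPL37, a zinc-binding protein of the 60S subunit. It had 2550, 2105 and 2149 TPM in THP-1 labelled DCBLD2, against 950, 903 and 947 TPM in labelled control. Every labelled DCBLD2 library held more than any labelled control library, a 2.49-fold difference (log2 fold change 1.32 ± 0.04 SE, adjusted p = 4.01e-20 by edgeR). RPS29, a zinc-binding protein of the 40S head and the member with the smallest effective length of those tested (from estimated count and TPM), had 874, 711 and 673 TPM in labelled DCBLD2 and 342, 353 and 319 TPM in labelled control (1.18 ± 0.07, adjusted p = 3.41e-14 by edgeR).

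RPS14, a 40S protein whose single-copy loss underlies the anaemia of the 5q- syndrome, came next by fold change. It had 2990, 2951 and 2970 TPM in labelled DCBLD2 and 1459, 1443 and 1441 TPM in labelled control (2.07-fold, adjusted p = 4.96e-26 by edgeR). RPS21, a small 40S protein, had 707, 656 and 603 TPM in labelled DCBLD2 and 330, 319 and 328 TPM in labelled control. RPL35, near the mouth of the peptide tunnel, had 1438, 1459 and 1463 TPM in labelled DCBLD2 and 714, 729 and 722 TPM in labelled control. These were the 5 genes past 2-fold, and none of their groups overlapped. All 5 were still called higher with the length trend removed, at smaller log2 fold changes: 0.97 for RPL37, 0.63 for RPS14, 0.37 for RPL35, 0.30 for RPS29 and 0.26 for RPS21. Among those under 2-fold, RPL39L (0.91 ± 0.07) and the zinc-binding 60S protein RPL37A (0.89 ± 0.03) followed, as log2 fold changes ± SE, or 0.47 and 0.28 with the length trend removed.

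Of the 7 genes that fell, 6 belong to the 60S subunit. RPL4, whose loop lines the peptide tunnel, had 1619, 1668 and 1671 TPM in THP-1 labelled DCBLD2 against 2355, 2374 and 2330 TPM in labelled control. It fell by 0.46 on the log2 scale (SE 0.01, adjusted p = 2.98e-19 by edgeR), and its groups were far apart. RPL14 had 470, 434 and 441 TPM in labelled DCBLD2 and 550, 536 and 569 TPM in labelled control. RPS4X, the X-linked 40S protein and the only small-subunit gene among the 7, had 581, 588 and 583 TPM in labelled DCBLD2 and 698, 706 and 713 TPM in labelled control. The other falls were smaller: RPL6 and RPL19 (both -0.20), RPL3, which reaches the peptidyl transferase centre (-0.16), and RPL5 (-0.09), as log2 fold changes. All 7 were also lower in the fit with the length trend removed. The 3 members not called were RPL7A at 0.01, RPS6 at 0.02 and RPL23A at 0.09. With the length trend removed RPL7A and RPS6 were called lower, and RPL23A was still not called.

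**Figure D2:**
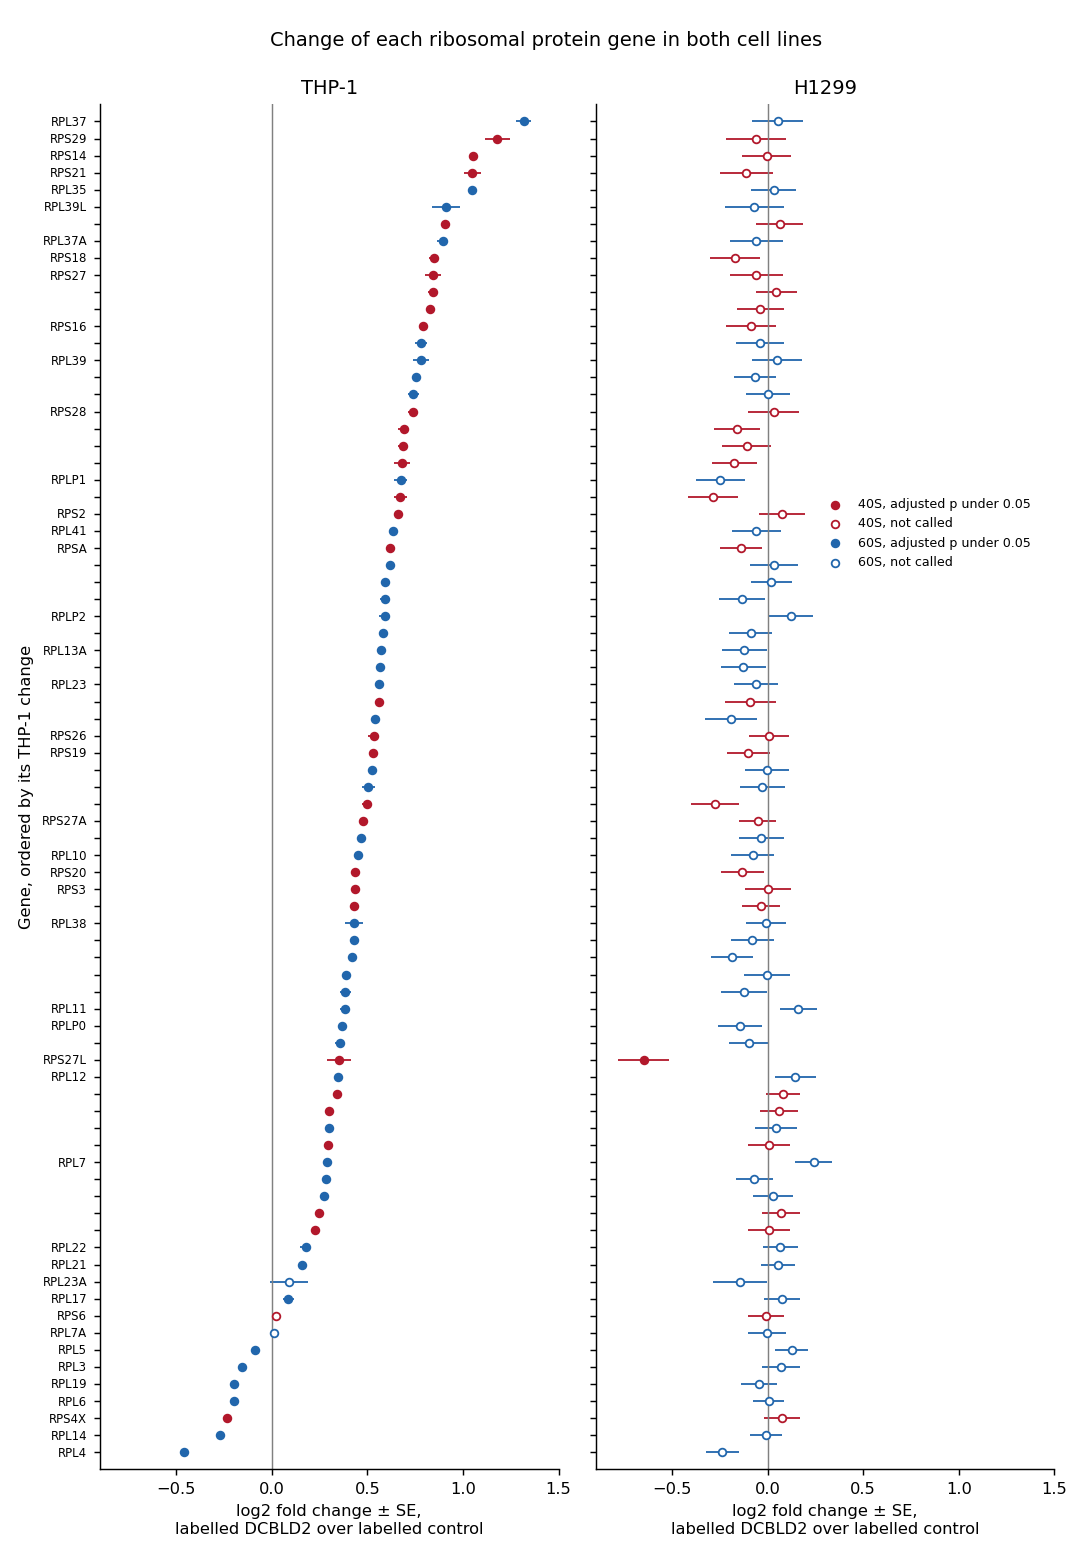
log2 fold change ± SE of labelled DCBLD2 over labelled control for the 79 ribosomal protein genes tested in THP-1 (left) and the same genes in H1299 (right), ordered by the THP-1 value, with the names of those described in the text. Filled points passed an adjusted p of 0.05 in edgeR. RPL37 at 1.32 is highest and RPL4 at -0.46 lowest in THP-1, and in H1299 1 filled point is seen, RPS27L at -0.65. With the length trend removed the THP-1 calls are 33 higher and 32 lower.

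Ribosomal protein mRNAs are short, and in THP-1 the change of a gene went with its length. The effective length of a gene was taken from the deposited table, as estimated count divided by TPM, and set to 1 at the median gene of each library. The members tested in THP-1 ranged from 0.112 (RPS29) to 0.551 (RPS4X), and 76 of 79 fell in the shortest of 10 equal length classes of the other genes. Across the 79 members the THP-1 log2 fold change and the log2 length had a Pearson r of -0.517 and a Spearman rho of -0.462. Both values share the counts of the same libraries and are given as a description across genes, which are not replicates.

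Other short mRNAs moved like the members. In the shortest class, 1305 genes that are not members had a median log2 fold change of 0.34, with 62.6% called higher and 9.96% lower, whereas the medians of classes 4 to 10 lay between -0.04 and -0.09. The interquartile range of the members' lengths was 0.2 to 0.33. In that range 38 of 39 members were higher, with a median of 0.48, and 495 other genes had a median of 0.46, with 69.9% higher and 7.47% lower. The alternative with the length trend removed was chosen after this was seen, and it fits the trend in each library on genes that are not members. Under it 33 members stayed higher, 23 that had been higher were lower, and 13 that had been higher were not called.

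The top and the bottom gene of the ranking were the same with and without the trend. RPL37 kept the highest value among members at 0.97, with RPS14 at 0.63, RPS28 of the 40S head at 0.59 and RPL39L at 0.47, all as log2 fold changes with the length trend removed. RPL4 kept the lowest at -0.71, with RPL19 at -0.63, RPL6 at -0.52 and RPL14 at -0.50. The 9 mitochondrially encoded mRNAs checked as signs of RNA quality, with a median relative length of 0.389, went the other way: 9 of 9 were lower in THP-1 labelled DCBLD2, with a median log2 fold change of -0.48. Why length and change went together, and the part that library making or RNA quality has in it, was not tested.

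**Figure D3:**
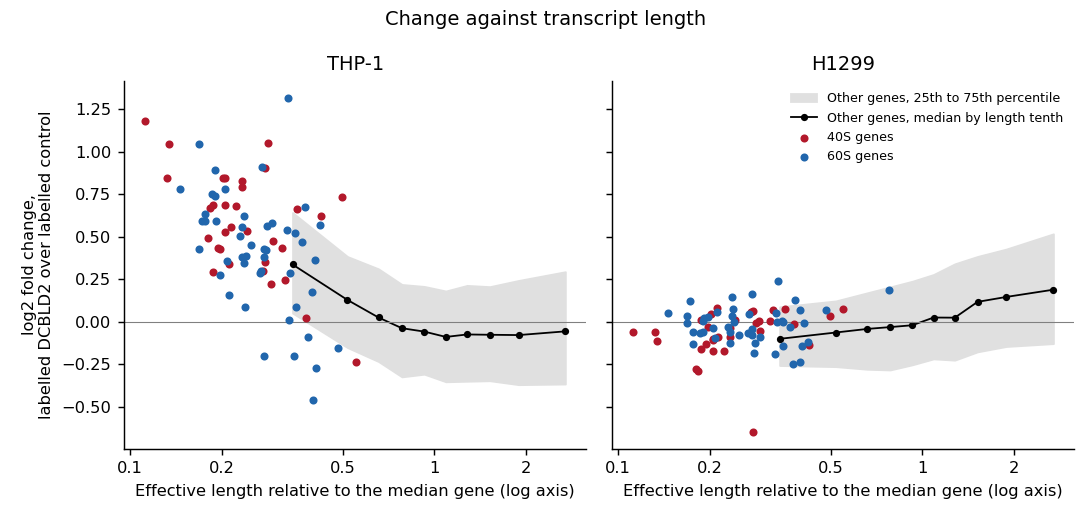
log2 fold change of labelled DCBLD2 over labelled control against effective length relative to the median gene (log axis), for THP-1 (left) and H1299 (right). Coloured points are 40S and 60S genes, the line is the median of all other genes in 10 equal classes of length and the band their interquartile range. In THP-1 the shortest class of other genes has a median of 0.34 and lies among the members, and in H1299 it has a median of -0.10. The direction of the THP-1 members as a group is not kept once this trend is removed (median -0.0065).

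The stalk that recruits the GTPase factors of translation is built on RPLP0, which carries RPLP1 and RPLP2. RPLP0 rose by a log2 fold change of 0.36 ± 0.01 in THP-1 labelled DCBLD2, RPLP1 by 0.67 ± 0.03 and RPLP2 by 0.59 ± 0.03 (SE). RPLP1 had 1420, 1344 and 1335 TPM in labelled DCBLD2 and 928, 935 and 916 TPM in labelled control. RPLP0, the anchor, had the smallest change of the 3. With the length trend removed RPLP2 was lower, at -0.07, and RPLP0 (0.12) and RPLP1 (0.40) remained higher.

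Members with known roles outside the ribosome did not move as a block. Among those that bind MDM2, RPL5 fell slightly, with 1106, 1075 and 1102 TPM in THP-1 labelled DCBLD2 against 1199, 1201 and 1187 TPM in labelled control. RPL11, which joins RPL5 and the 5S ribosomal RNA in one particle, rose, with 1270, 1205 and 1207 TPM in labelled DCBLD2 against 964, 967 and 976 TPM in labelled control (0.38 ± 0.02, SE). RPL23 also rose, by 0.56 ± 0.02 (SE), or 0.05 with the length trend removed. The partners of the 5S particle therefore went in opposite directions on the count scale, and with the length trend removed both were lower, RPL5 at -0.36 and RPL11 at -0.05.

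RPS6, the substrate of the S6 kinases and a common readout of mTOR activity at the protein level, had 2307, 2365 and 2341 TPM in labelled DCBLD2 and 2334, 2367 and 2362 TPM in labelled control, and its groups overlapped (adjusted p = 0.142 by edgeR). With the length trend removed RPS6 was called lower, at a value given with the reversed genes below. RPSA, also known as the laminin receptor, had 1184, 1175 and 1169 TPM in labelled DCBLD2 and 796, 786 and 772 TPM in labelled control (0.62 ± 0.02, SE). RPL13A, part of the interferon-gamma-activated inhibitor of translation complex of myeloid cells, had 3379, 3360 and 3330 TPM in labelled DCBLD2 and 2298, 2340 and 2319 TPM in labelled control. The groups of RPSA and RPL13A did not overlap, and both rises were called with the length trend removed as well, at 0.40 and 0.35. RPS3, which also binds NF-kappaB, rose by 0.43, RPS27A, made as a fusion with ubiquitin, by 0.48, RPS19, the gene most often mutated in Diamond-Blackfan anaemia, by 0.53, RPL38, which in mouse is needed for the translation of Hox mRNAs, by 0.43, and RPL22, which binds viral EBER RNAs, by 0.18, all on the log2 scale. Of these 5, RPS19 was not called, RPL38 and RPL22 were lower, and RPS3 and RPS27A were higher by 0.07 and 0.08 with the length trend removed.

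Copies with a restricted tissue range were at low levels. RPL39L, the testis-enriched copy of the tunnel protein RPL39, had 46.7, 45.2 and 44.5 TPM in labelled DCBLD2 and 25.6, 23.9 and 25.1 TPM in labelled control. RPL39 itself had 1409, 1233 and 1219 TPM in labelled DCBLD2 and 784, 738 and 789 TPM in labelled control. The log2 fold changes were 0.91 for the copy and 0.78 for RPL39, and with the length trend removed 0.47 for the copy and 0.03 for RPL39, which was then not called. RPS27L had 0.35 ± 0.06 and RPS27, a zinc-binding 40S protein, 0.84 ± 0.04 (SE). RPL10, which completes the 60S subunit in the cytoplasm, had 0.45. These 3 were called higher on the count scale, but with the length trend removed none of the 3 was called, at -0.08 for RPS27L, 0.04 for RPS27 and -0.03 for RPL10. The testis copy of RPL10, RPL10L, had 0 estimated reads in all 12 libraries, which allows up to 3 reads per library (counting error only). RPL3L, the heart and skeletal muscle copy of RPL3, had 2 reads over the THP-1 labelled DCBLD2 group and 1 over THP-1 labelled control and was not tested there. RPL10L was tested nowhere.

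In H1299 cells the comparison of the labelled genotypes gave 0 members higher and 1 lower of the 80 tested by edgeR's quasi-likelihood test, where 10.3% of 12773 genes were called higher and 10.6% lower. With the length trend removed, 2 were higher, RPL7 at 0.32 and RPL11 at 0.25 on the log2 scale, and 1 lower, against 12.2% and 13.6% of all genes. At an unadjusted p under 0.05 there were 3 members, and DESeq2 called 0 higher and 2 lower. The members' median log2 fold change was -0.03, against 0.0047 for all genes tested. Leaving aside RPL3L, 73 of 79 estimates lay within 0.2 of 0 on the log2 scale, with SEs of 0.08 to 0.16. Groups did not overlap for 7 of 80 members, against 37.5% of all genes: RPL11, RPL12, RPL17, RPL5 and RPL7 above, RPL4 and RPS27L below.

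The gene that fell was RPS27L. It had 68.9, 58.0 and 64.6 TPM in H1299 labelled DCBLD2, against 106, 95.1 and 91.2 TPM in H1299 labelled control, and the groups stood apart. The log2 fold change was -0.65 ± 0.13 (SE, adjusted p = 0.0120 by edgeR). The call was lost without labelled DCBLD2 replicate 2 (adjusted p = 0.0689 by edgeR, log2 fold change -0.55). Calls over all genes also dropped without that library, from 1313 higher and 1356 lower of 12773 to 184 and 330 of 12915. Its partner RPS27 had 2002, 1911 and 2251 TPM in labelled DCBLD2 and 2447, 2156 and 1788 TPM in labelled control, with groups that overlapped. RPL7 had 4035, 4310 and 4138 TPM in labelled DCBLD2 and 3866, 3071 and 3496 TPM in labelled control. RPL4 had 5046, 5172 and 4950 TPM in labelled DCBLD2 and 6056, 5879 and 6024 TPM in labelled control. Both stood apart between the groups, RPL7 above and RPL4 below, and neither passed the test, at adjusted p = 0.105 and 0.0773 by edgeR.

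The H1299 members varied together from library to library. The share of estimated reads was 8.67%, 8.54% and 9.89% in labelled DCBLD2 and 9.71%, 9.98% and 8.65% in labelled control, with means of 9.03% ± 0.744 and 9.45% ± 0.705 (SD, n = 3 each, exact permutation test, two-sided, p = 0.6). Labelled DCBLD2 replicate 3 and labelled control replicate 3 each lay among the libraries of the other group. The ratio of the means was 0.956, or 0.911 with labelled DCBLD2 replicate 3 left out and 0.917 with labelled control replicate 3 left out. In each of these cases 0 members were called higher and 1 lower. On a log2 scale of counts per library size with TMM factors, 79 of the 79 members measured were above their group's mean in labelled DCBLD2 replicate 3, 0 in replicate 2 and 9 in replicate 1. In labelled control the counts were 62 in replicate 1, 75 in replicate 2 and 2 in replicate 3. The median member of labelled DCBLD2 replicate 3 stood 0.17 above its group on the log2 scale and that of labelled control replicate 3 stood at -0.14, while the medians of all genes were 0.0051 and 0.016. In THP-1 the medians of members ranged from -0.03 to 0.05.

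**Figure D4:**
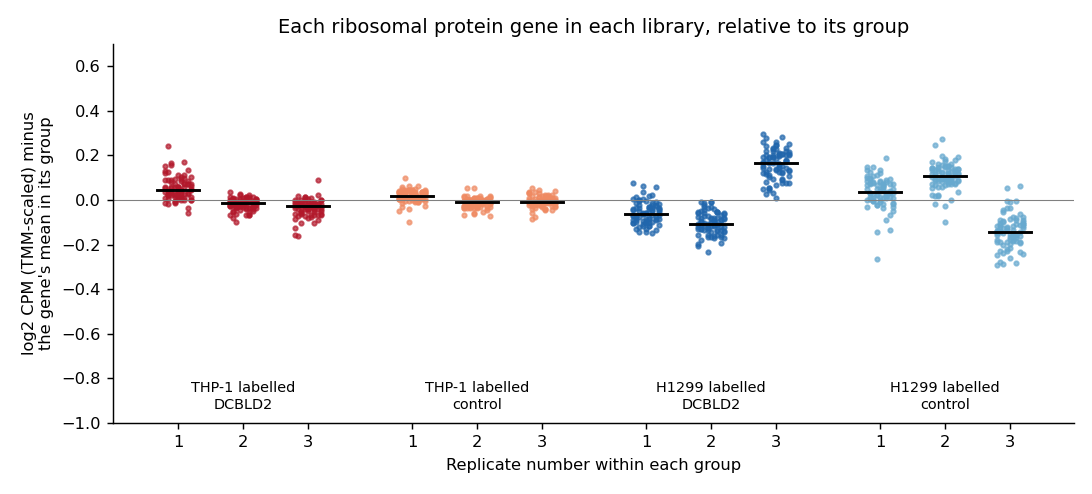
Each of 79 ribosomal protein genes as a point in each library, as TMM-scaled log2 count per library size minus the gene's mean over its group of 3, with the median as a black line. Members of 1 H1299 library move together: the median is 0.17 in labelled DCBLD2 replicate 3 and -0.14 in labelled control replicate 3, against -0.03 to 0.05 in the THP-1 libraries.

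Whether the change with the labels differed between the cell lines was tested as an interaction over all 12 libraries. In edgeR 57 of 80 members had a higher signed change in THP-1 than in H1299 and 6 a lower one, where 19.3% and 19.5% of 14244 genes did. The 6 with a lower signed change were members that fell in THP-1. With the length trend removed the counts were 18 and 22, against 19.1% and 17.1% of all genes, and the median of members was 0.02 in place of 0.54. The largest differences were those of RPL37 (1.25 ± 0.15), RPS29 (1.23 ± 0.20) and RPS21 (1.14 ± 0.16), and the most negative was that of RPS4X (-0.33 ± 0.08), on the log2 scale with SE, or 0.85, 0.39, 0.38 and -0.46 with the length trend removed. RPS27L differed by 0.98 ± 0.15 (SE, adjusted p = 0.000224 by edgeR). Its difference was 0.50 with the length trend removed (adjusted p = 0.00806 by edgeR), and under that fit its THP-1 change, a rise on the count scale, was -0.08 and not called. The 6 on the negative side, RPS4X, RPL14, RPL3, RPL4, RPL5 and RPL6, depend on single libraries. Their number was 0 without H1299 labelled control replicate 3, 1 when labelled DCBLD2 replicate 2 or 3 or labelled control replicate 1 was left out, 2 when labelled DCBLD2 replicate 1 was, and 3 when THP-1 labelled control replicate 1 or 2 was.

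Between the cell lines, THP-1 labelled control was compared with H1299 labelled control in the same fit. Cell line, PMA and the exposure to H1299 material differ together here and cannot be told apart. On the scale set by TMM, 3 of 80 members were higher in THP-1 and 70 lower, where 42.3% of genes were called higher and 43.6% lower. With the length trend removed, 21 were higher and 45 lower, against 44.7% and 42.1%. The members' median log2 fold change was -0.71, against -0.03 for all genes tested, and -0.20 with the trend removed. Groups did not overlap for 79 of 80 members, against 85.2% of all genes. Scaling by library size alone shifts the median of all genes to -0.46 and limma on log2(TPM + 1) shifts it to -0.24. Relative to these shifts the members, at medians of -1.14 and -0.96, were again lower.

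The largest falls among genes with more than a few reads were those of RPL39L, RPS16 and RPS19. RPL39L had 25.6, 23.9 and 25.1 TPM in THP-1 labelled control, against 116, 159 and 142 TPM in H1299 labelled control (log2 fold change -2.22 ± 0.14, SE). RPS16, whose tail reaches the P site, had 1206, 1184 and 1209 TPM in THP-1 labelled control and 6599, 6428 and 5591 TPM in H1299 labelled control. RPS19 had 1008, 1047 and 1050 TPM in THP-1 labelled control and 5453, 5522 and 4966 TPM in H1299 labelled control. Each of these 3 was several times lower in THP-1, with no overlap, and each was called lower with the length trend removed as well. RPS26, which touches the mRNA at the exit side (-2.05), RPSA (-1.80), RPL35 (-1.76) and RPS4X (-1.64) followed, as log2 fold changes. RPL3L had 1 read in all of THP-1 labelled control and 27 in H1299 labelled control, a ratio per read sequenced of 0.0361 whose 95% exact binomial interval, for counting error only, ran from 0.000883 to 0.219.

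Few members were higher in THP-1. RPS27 had 2978, 2786 and 2872 TPM in THP-1 labelled control and 2447, 2156 and 1788 TPM in H1299 labelled control, with a log2 fold change of 0.71 ± 0.11 (SE, adjusted p = 3.87e-05 by edgeR). RPL21, a 60S protein with 66 named pseudogenes, had 1394, 1392 and 1385 TPM in THP-1 labelled control and 1382, 1254 and 1251 TPM in H1299 labelled control (0.37 ± 0.05, SE). These groups did not overlap, although for RPL21 they came close, and its direction turned (-0.06) when libraries were scaled by size alone.

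**Figure D5:**
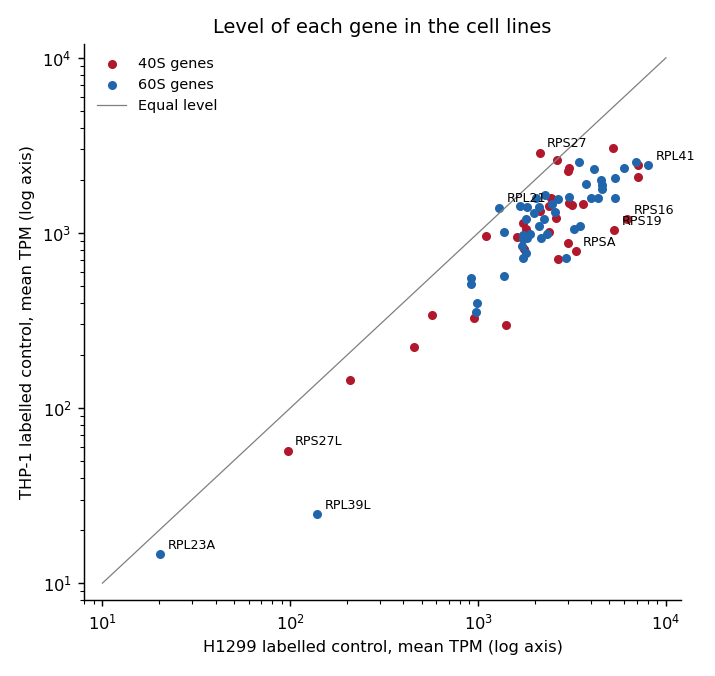
Mean TPM (n = 3) of each ribosomal protein gene in THP-1 labelled control (vertical, log axis) against H1299 labelled control (horizontal, log axis), with a line of equal level. RPL10L and RPL3L, under 1 TPM, are left out. RPS27 and RPL21 lie above the line, and most of the others lie below it.

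Features that the symbols do not show were set beside the THP-1 changes. Of the 53 members with a C or T run of at least 8 letters at the start, 48 were higher and 3 lower; their median log2 fold change was 0.52 and their median relative length 0.234. Of the 10 tested members whose window held no such run, 7 were higher and 3 lower; their median log2 fold change was 0.30 and their median relative length 0.285. Members with the run thus also had the smaller median length, and with the length trend removed the medians were -0.0065 with the run and -0.13 without it. Of the 16 tested members that had no window, 14 were higher and 1 lower. Their median was 0.59, or 0.078 with the length trend removed. On chromosome 19, 12 of 12 members were higher, and their median log2 fold change was 0.56, or 0.057 with the length trend removed. On the other chromosomes 57 of 67 were higher, with a median of 0.47, or -0.015 with the length trend removed. Members with at least 10 named pseudogenes had a median of 0.45 (32 of 39 higher) and those with fewer 0.53 (37 of 40 higher), and with the length trend removed the medians were -0.031 and 0.018.

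Other genes of the pathway were taken as lists, and each list's counts stand beside 34.5% higher and 33.6% lower of all genes tested in THP-1 and 10.3% and 10.6% in H1299. Ribosomal proteins outside the symbol rule were 5 higher and 1 lower of 7 in THP-1, and their median log2 fold change was 0.37. Under the fit without the length trend the counts were 3 and 3 and the median -0.0060. FAU, a fusion gene for RPS30, had a log2 fold change of 1.17, the 40S scaffold RACK1 of 0.28 and the near-identical copy RPL26L1, whose reads can be split with RPL26, of 1.01. Without the length trend FAU had 0.55 and RPL26L1 0.56, and RACK1, at -0.0060, was not called (adjusted p = 0.756 by edgeR). In H1299 1 of the 7 was called, RPL22L1, the copy of RPL22, at 0.50. RPL22L1 was not called in THP-1 (0.07), and the difference of its changes was -0.44 ± 0.16 (SE, adjusted p = 0.0364 by edgeR). Once the length trend was removed RPL22L1 was called lower in THP-1, at -0.47 (adjusted p = 8.59e-06 by edgeR), and the difference was -1.03.

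Of 15 other mRNAs known to carry a TOP tract, 10 were higher and 3 lower in THP-1 labelled DCBLD2, and their median log2 fold change was 0.13. Under the fit without the length trend the counts were 6 and 5 and the median -0.0078. EEF1A1, the factor that brings aminoacyl-tRNA to the ribosome and the most abundant of them, fell to 9808 TPM in labelled DCBLD2, against 13753 TPM in labelled control (-0.45 ± 0.01, SE). EIF3L, a subunit of the initiation factor eIF3, also fell (-0.70), whereas EEF1D, the exchange factor of EEF1A1 (0.50), and TPT1, the translationally controlled tumour protein (0.35), rose, by 0.29 and 0.07 with the length trend removed. The TOP class therefore did not share 1 direction. In H1299, 4 of 15 were called, all higher: EIF3E (0.55), EIF4B (0.48), NPM1 (0.38) and EIF3H (0.33).

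Regulators of TOP mRNA translation were 7 higher and 7 lower of 16 in THP-1, where 34.5% and 33.6% of all genes tested were. EIF4EBP1, the repressor of the cap-binding factor eIF4E that mTOR phosphorylates, had 369 TPM in labelled DCBLD2 and 169 TPM in labelled control (1.17 ± 0.03, SE). The shared mTOR subunit MLST8 (0.90) and RICTOR of mTOR complex 2 (0.63) rose, and CNBP, a nucleic-acid-binding protein of TOP mRNAs, fell (-0.42). LARP1 had 70.6 TPM in labelled DCBLD2 and 70.1 TPM in labelled control and was not called. In H1299, 1 was higher, MTOR (0.31), and 1 lower, EIF4EBP2 (-0.62), where 10.3% and 10.6% of all genes tested were. MTOR had 0.09 with the length trend removed and was not called (adjusted p = 0.610 by edgeR).

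Genes for ribosome assembly and ribosomal RNA synthesis were 21 higher and 24 lower of 62 in THP-1, close to the 34.5% and 33.6% of all genes tested, with a median log2 fold change of -0.02. NOP10 (0.78) and NHP2 (0.70) of the box H/ACA particles, BOP1, needed for the maturation of the 60S subunit (0.75), and EIF6, which keeps free 60S subunits apart from 40S subunits (0.59), had the smallest p-values of the list in edgeR. Removing the length trend gave 0.16 for NOP10, 0.20 for NHP2, 0.80 for BOP1 and 0.35 for EIF6, all still called. In H1299, 12 were higher and 4 lower of 62, where 10.3% and 10.6% of all genes tested were, TAF1A of the RNA polymerase I machinery (1.08), the nuclear export adapter NMD3 (0.91) and the assembly GTPase GNL2 (0.75) among those higher and the polymerase I factor UBTF (-0.52) among those lower. Ribosome rescue and quality control genes were 6 higher and 1 lower of 10 in THP-1, with NEMF (0.68), EDF1 (0.52), ASCC3 (0.50) and LTN1 (0.40) higher. EDF1 had 0.05 with the length trend removed and was not called (adjusted p = 0.102 by edgeR), and NEMF, ASCC3 and LTN1 were still called, at 0.75, 0.55 and 0.44. In H1299, 2 of these 10 were called, both higher: ABCE1, which splits the subunits apart (0.68), and HBS1L, which frees stalled ribosomes (0.41).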

How the data were processed

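The 12 libraries were made from Trizol RNA as fragmented, enriched mRNA with a NEBNext Ultra kit, per the labels' protocols. The submitters' processing notes name fastp 0.18.0, Bowtie2 2.2.8, HISAT2, StringTie 1.3.1, RSEM and the build hg38, and strand handling is not given in the sources used here. Per gene and library the authors deposited an estimated count and a TPM value. Estimated counts were rounded and tested with edgeR 4.0.16 (R 4.3.3): quasi-likelihood test, TMM factors, a minimum count of 10 in filterByExpr, 1 fit per cell line, and 1 fit of all 12 libraries for the difference of the changes and for the cell lines, with Benjamini-Hochberg adjustment over all genes tested. Code was tested on simulated data. Alternatives used DESeq2 1.42.0, limma 3.58.1 on log2(TPM + 1), other scalings and filters, and each library left out. One alternative, added after the data were seen, removed each library's trend with effective length (lowess span 0.3, fitted on genes other than the members).

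Members, lists and tests were chosen with earlier results of these data known. Genes named with values are up to 8 called members per direction by fold change among those whose groups did not overlap, the 5 highest and 5 lowest levels, copies and their partners, the stalk, members with roles outside the ribosome, and up to 4 called genes of each list by p-value. RPL7, RPL7A, RPL12, RPL17, RPS28, LARP1 and the 6 members with lower differences were named after their values were seen. Some genes are not reported here. Positions of genes come from GENCODE 29, in which 98.9% of the IDs were found, and start windows from RefSeq. Intervals and limits on counts of 0 cover counting error only. The total per library, 14578887 to 26787853, limits precision less than the spread between H1299 libraries does.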

Additional observations from a re-analysis of the deposited data

Results flagged for a closer look

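The change of a ribosomal protein gene with the labels differed between the cell lines, by the interaction term of edgeR over all 12 libraries at an adjusted p under 0.05, for 57 members with a higher change in THP-1 and 6 with a lower one. Values below are the THP-1 change minus the H1299 change on the log2 scale, and under the fit with the length trend removed 18 members were higher and 22 lower. Among proteins of the 40S subunit the differences were 1.23 for RPS29, 1.14 for RPS21, 1.05 for RPS14, 1.005 for RPS18, 0.98 for RPS27L, 0.89 for RPS27, 0.87 for RPS16, 0.75 for RPSA, 0.62 for RPS19, 0.57 for RPS2, 0.56 for RPS20, 0.52 for RPS27A, 0.51 for RPS26 and 0.42 for RPS3. Among proteins of the 60S subunit they were 1.25 for RPL37, 1.005 for RPL35, 0.97 for RPL39L, 0.94 for RPL37A, 0.72 for RPL39, 0.68 for RPL41 and for RPL13A, 0.61 for RPL23, 0.52 for RPL10 and 0.43 for RPL38. In the stalk they were 0.91 for RPLP1, 0.50 for RPLP0 and 0.46 for RPLP2.

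The 6 lower differences were -0.33 for RPS4X, -0.27 for RPL14, -0.24 for RPL3, -0.23 for RPL4, -0.23 for RPL5 and -0.22 for RPL6. RPL4 was lower with the DCBLD2 label in both cell lines by estimate, RPL5 fell in THP-1 and had 0.13 in H1299, and RPS27L had 0.35 in THP-1 and -0.65 in H1299, or -0.08 and -0.56 with the length trend removed.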

How the results depend on the processing

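Removing the length trend gave 33 members higher and 32 lower in THP-1 labelled DCBLD2 (median log2 fold change -0.0065), 2 higher in H1299, 18 higher and 22 lower for the difference of the changes, and 21 higher and 45 lower between the lines. It reversed in THP-1 RPS27L (-0.078), RPL10 (-0.031), RPL11 (-0.054), RPS6 (-0.25), RPL22 (-0.073), RPS19 (-0.044), RPL38 (-0.25), RPLP2 (-0.074), RPL21 (-0.40), RPL41 (-0.015) and RPS20 (-0.17). For the difference it reversed RPL10 (-0.0090), RPL39 (-0.028), RPL11 (-0.28), RPS6 (-0.31), RPL38 (-0.27), RPS3 (-0.0046), RPLP2 (-0.22), RPL21 (-0.51), RPS26 (-0.026) and RPS20 (-0.079). Between the lines it reversed RPS27L (0.081), RPL5 (0.11), RPL23 (0.47), RPS6 (0.35), RPS29 (0.28), RPL37A (0.12), RPL19 (0.33), RPS18 (0.076) and RPL23A (0.28). These values are log2 fold changes, and the cause was not tested.

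With the common spread of H1299, 53 members were higher and 1 lower in THP-1, against 2358 and 2173 of all 13120 genes tested. In H1299, 2 were lower with library size alone and with DESeq2, and 2 higher and 3 lower in a fit of all 12 libraries. Of the difference, 3 were lower with TMM factors computed without the members and 1 with library size alone. Between the lines 1 was higher with library size alone, which turned RPL21 (-0.061), and 1 with limma. The THP-1 share of reads had a ratio of 1.413, or 1.372 in summed TPM, and the H1299 ratio of 40S to 60S was 1.004 in counts. Leaving out 1 library gave 68 to 69 higher and 7 lower in THP-1, 0 to 1 higher and 0 to 1 lower in H1299, 55 to 66 higher and 0 to 5 lower for the difference, 64 to 70 lower between the lines, and THP-1 share ratios of 1.391 to 1.429.

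Same-numbered libraries correlated at -0.131 to -0.281 in H1299 and at 0.0531 to 0.0839 in THP-1. In THP-1 each labelled DCBLD2 library correlated best with the labelled control library of its own number. All values lay under 0.1, the minimum set for pairing, so the numbers were not taken to pair the libraries. With the number as a replicate block the calls were 69 higher and 7 lower in THP-1, 0 and 1 in H1299, 57 and 4 for the difference, and 3 and 69 between the lines.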
